A study of Mus musculus with 9 samples.

Results

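The 10 genes described here belong to the YAP/TAZ-TEAD pathway, the transcriptional output arm of Hippo signalling, and were followed in whole mouse corneas as an actin-linked pathway beside serum response factor (SRF). They were chosen by name as 2 coactivators (Yap1, and Wwtr1, which encodes TAZ), 2 TEAD transcription factors (Tead1 and Tead4) and 6 target genes (Ankrd1, Ccn1, Ccn2, Axl, Amotl2 and Lats2). All 10 were among the 22180 genes measured with a probe set of a single gene symbol, and each gene is represented by its brightest probe set, judged by the mean of the 9 arrays. The arrays came from 3 groups of 3. The rescued corneas were Dstn corn1 mutant, with Srf in addition ablated genetically in the corneal epithelium. Dstn encodes destrin, which depolymerises actin filaments. The mutant corneas had the Dstn corn1 mutation without the ablation of Srf, and the third group was wild type (WT). All mice, WT included, were injected with doxycycline from postnatal day 28 to postnatal day 58, were 58 days old, and had a mixed background of FVB, Swiss Black, 129, C57BL6/J and A.BY. Each array measured 1 pool of 10 corneas from 5 mice, and the transgenes that drive the ablation are not named in the labels. Levels are given on the authors' normalised log2 scale, base 2 being inferred from the range of the values. Levels of different genes are not compared, because each probe set has its own response.

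YAP and TAZ are coactivators without a DNA-binding domain of their own. When the Hippo kinases, ending with the LATS kinases, phosphorylate them, they are kept in the cytoplasm or degraded, and otherwise they enter the nucleus and activate genes through TEAD factors. Filamentous actin and tension are known to favour their nuclear entry. Actin monomers hold the MRTF cofactors of SRF, and assembly of the monomers into filaments releases these cofactors. Some genes, Ccn1 and Ccn2 among them, are known to respond to both pathways. Amotl2 and Lats2 encode inhibitors of YAP and TAZ that are themselves targets, which forms a feedback loop. The arrays measured transcripts; the phosphorylation and location of the YAP and TAZ proteins were not measured.

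The promoters are shown first because most of the genes were chosen as targets of the TEAD factors. The RefSeq promoter table (GRCm38.p6) held Ankrd1, Ccn1, Amotl2, Lats2, Yap1, Wwtr1 and Axl. The 250 bases before each transcription start were searched on both strands for GGAATG, the core of the TEAD site. They were also searched for the CArG box, the SRF site, in its strict form only (CC, then 6 bases of A or T, then GG). The TEAD core occurred in 6 of these 7 genes, all but Lats2, against 14.4% of all 27025 genes in the table. It also occurred in 10 of the 25 contractile and actin genes listed as SRF targets that the table held (40%). No CArG box lay in the 250 bases of any of the 7 genes, against 8 of the 25 SRF target genes (32%) and 1.62% of all genes. A match is a description of the letters and not a bound site, and SRF sites outside this window were not searched. Known targets of TEAD or SRF were chosen for these lists, so the shares are a description and not a test. The 250 bases of Ankrd1 and Ccn1, the genes with the largest increases in mutant corneas, are given in full, followed by 30 bases around the core in the other 4 genes; capitals mark the TEAD core, which in Ccn1 and Amotl2 lies on the other strand and reads as its reverse complement.
Ankrd1, chr19:36119845-36120094, minus strand: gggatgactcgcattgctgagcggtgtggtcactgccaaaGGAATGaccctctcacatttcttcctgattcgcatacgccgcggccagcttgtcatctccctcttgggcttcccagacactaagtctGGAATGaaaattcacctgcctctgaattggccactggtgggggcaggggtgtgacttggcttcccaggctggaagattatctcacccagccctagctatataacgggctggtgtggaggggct
Ccn1, chr3:145649986-145650235, minus strand: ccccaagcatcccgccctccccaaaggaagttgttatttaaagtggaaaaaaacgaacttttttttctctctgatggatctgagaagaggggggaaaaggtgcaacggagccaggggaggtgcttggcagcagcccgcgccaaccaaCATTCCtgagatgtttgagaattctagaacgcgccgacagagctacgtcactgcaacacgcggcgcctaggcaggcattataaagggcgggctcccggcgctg
Wwtr1, chr3:57576029-57576058, minus strand: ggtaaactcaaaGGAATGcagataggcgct
Yap1, chr9:8004720-8004749, minus strand: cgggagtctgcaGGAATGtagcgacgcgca
Axl, chr7:25788949-25788978, minus strand: ggaaattctacaGGAATGtttaccagaccc
Amotl2, chr9:102717727-102717756, plus strand: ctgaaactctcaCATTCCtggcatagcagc
Ankrd1 held 2 cores, starting 210 and 123 bases before the transcription start, and Ccn1 held 1, starting at 103 bases. The cores of Wwtr1, Yap1, Axl and Amotl2 started at 136, 141, 233 and 65 bases. The cores lay in genes that moved in opposite directions: Ankrd1, Ccn1 and Wwtr1 were higher in mutant corneas than in WT, and Yap1 and Amotl2 were lower.

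Some facts of the whole series bear on these values. The log2 level of Dstn was 5.61, 5.62 and 5.63 in the rescued pools, 5.55, 5.80 and 5.54 in the mutant pools, and 12.58, 12.55 and 12.59 in the WT pools. The log2 level of Srf was 9.14, 9.45 and 8.45 in the rescued, 10.77, 10.72 and 10.55 in the mutant, and 9.23, 8.98 and 9.17 in the WT pools. Of 10 corneal epithelial markers 8 were measured, at a mean log2 level of 12.3 to 12.5 in every pool (12.42 to 12.50 rescued, 12.39 to 12.45 mutant, 12.33 to 12.36 WT). Behind this mean, 3 of the 8 were higher (Krt14, Cdh1 and Epcam) and 3 lower (Krt12, Pax6 and Aldh3a1) in mutant corneas than in WT, with log2 differences from −0.68 for Pax6 to 1.22 for Krt14. In rescued corneas compared with mutant ones the first 3 were lower (1 of them without mutant replicate 3) and the other 3 higher. Their part in the differences below was not tested. For these and the following marker counts, 15.1% of all genes were higher and 16.5% lower in mutant corneas than in WT. In rescued corneas compared with mutant ones, 6.46% of all genes were higher and 6.88% lower. Blood endothelial markers had summed linear intensities of 2127 to 2705 in rescued, 3067 to 4070 in mutant and 1319 to 1394 in WT pools, and 9 of 10 were higher and 1 lower in mutant corneas than in WT. Macrophage and leukocyte markers summed to 4463 to 5439 in rescued, 4113 to 5492 in mutant and 3488 to 3584 in WT pools, with 10 of 12 higher and 2 lower in the mutant. Pericyte and smooth muscle markers summed to 3324 to 4069, 4566 to 6132 and 2685 to 2995 in rescued, mutant and WT pools, with 4 of 8 higher and 1 lower in the mutant. Keratocyte and fibroblast markers overlapped among the groups (39420 to 42700 rescued, 34510 to 42900 mutant, 33980 to 44880 WT), with 3 of 12 higher and 2 lower in the mutant (0 lower without mutant replicate 2, 1 without mutant replicate 3 or WT replicate 1 or 2, and 4 without WT replicate 3). Lens genes summed to 4490 to 5353 in rescued, 4462 to 8103 in mutant and 11030 to 14570 in WT pools, with 7 of 11 lower and none higher in the mutant by limma (0 higher at an unadjusted p under 0.05). Skeletal and cardiac muscle genes lay at a mean log2 level of 5.99 to 6.14 in rescued, 6.03 to 6.06 in mutant and 6.02 to 6.14 in WT pools, below 6.77, the median of all rows. The mean log2 level of 3 Y-linked genes was 7.16, 9.11 and 8.89 in rescued, 7.77, 9.77 and 8.41 in mutant and 5.34, 9.77 and 5.15 in WT pools. WT replicates 1 and 3 lay below every other pool, so sex was not balanced between the groups. The log2 level of Xist, which is transcribed in female cells, was 12.69, 11.94 and 12.37 in rescued, 12.55, 6.12 and 12.35 in mutant and 12.94, 11.76 and 12.90 in WT pools. Mutant replicate 2 was thus low in Xist, although its Y-linked level equalled that of WT replicate 2. A fit with the Y-linked level as a covariate is among the settings of the last section, and it does not separate these 2 pools. Vessel wall cells, leukocytes and fibroblasts express several of the genes below, and their part in the differences was not tested. In whole corneas, fewer cells of a type and less RNA per cell cannot be told apart.

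Loss of normal Dstn was accompanied by opposite shifts within the pathway. In mutant corneas the targets Ankrd1, Ccn1 and Ccn2 were 2.73-fold to 4.29-fold higher than in WT, the coactivator gene Wwtr1 was 1.49-fold and Tead4 1.45-fold higher. Yap1 was 1.42-fold lower and the feedback inhibitor gene Amotl2 1.59-fold lower. Lats2, Tead1 and Axl did not pass the test. In total 7 of the 10 genes were called (limma, Benjamini-Hochberg adjusted p under 0.05 over all genes), against 31.6% of all genes tested; 5 were higher, against 15.1%, and 2 were lower, against 16.5%. The mutant and WT pools did not overlap in 8 of the 10 genes, against 44.7% of all genes. The median log2 difference of the 10 genes was 0.22, beside −0.02 for all genes. The same 7 genes differed among the 3 groups in the moderated F test of limma, against 29.4% of all genes.

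**Figure D1:**
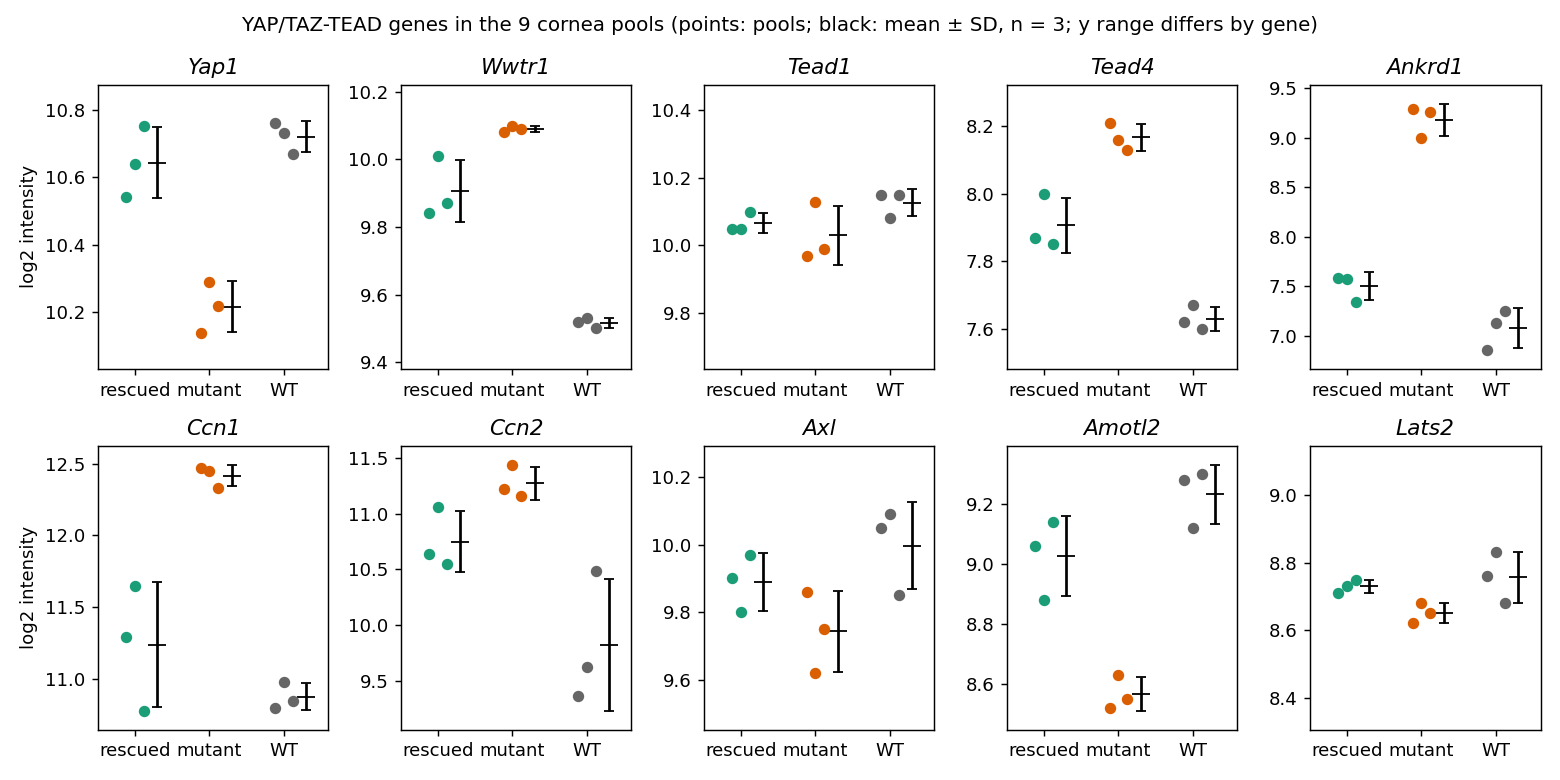
Log2 intensity (vertical axes, with a range of its own for each gene) of the 10 genes in the 3 rescued, 3 mutant and 3 WT pools; coloured points are pools and black marks the mean ± SD (n = 3). Ankrd1 and Ccn1 are highest in the mutant pools, Yap1 and Amotl2 are lowest there, and Tead1, Lats2 and Axl span 0.18, 0.21 and 0.46 over the 9 pools.

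The coactivator gene Yap1 (probe set 17523883) had log2 levels of 10.54, 10.64 and 10.75 in rescued pools, 10.14, 10.29 and 10.22 in mutant pools and 10.76, 10.73 and 10.67 in WT pools. The mutant pools lay below every other pool, and the rescued and WT pools overlapped. Yap1 was lower in mutant corneas than in WT by a log2 difference of −0.50 (SE 0.07, limma adjusted p = 0.000514). It was higher in rescued corneas than in mutant ones by 0.43 (SE 0.07, adjusted p = 0.00414). Between rescued and WT corneas the difference was −0.07 (95% interval −0.24 to 0.09, adjusted p = 0.581). A second, dimmer probe set of Yap1 had mean log2 levels of 6.32 in rescued, 6.12 in mutant and 6.24 in WT corneas, below the median of all rows.

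Wwtr1 (probe set 17405365), whose product TAZ binds the same TEAD factors as YAP, had log2 levels of 9.84, 10.01 and 9.87 in rescued, 10.08, 10.10 and 10.09 in mutant and 9.52, 9.53 and 9.50 in WT pools. The groups did not overlap, and the rescued pools lay between the other groups. Wwtr1 was higher in mutant corneas than in WT by a log2 difference of 0.57 (SE 0.06, limma adjusted p = 9.28e-05) and remained higher in rescued corneas than in WT by 0.39 (SE 0.06, adjusted p = 0.00339). The difference of rescued from mutant corneas did not pass the test (−0.18, 95% interval −0.32 to −0.04, adjusted p = 0.093), but did without rescued replicate 2 (−0.23, adjusted p = 0.0415). The genes of the coactivator pair thus lay on opposite sides of WT in the mutant pools, Wwtr1 above it and Yap1 below it.

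Of the TEAD genes, Tead4 (probe set 17471278) had log2 levels of 7.87, 8.0 and 7.85 in rescued, 8.21, 8.16 and 8.13 in mutant and 7.62, 7.67 and 7.60 in WT pools. The rescued pools again lay between mutant and WT pools without overlap. Tead4 was higher in mutant corneas than in WT by 0.54 on the log2 scale (SE 0.06, limma adjusted p = 0.000149). Its differences of rescued from mutant (−0.26, SE 0.06, adjusted p = 0.024) and of rescued from WT corneas (0.27, SE 0.06, adjusted p = 0.0194) were smaller. The call between rescued and mutant was lost without rescued replicate 1 or 3 or any mutant replicate (adjusted p = 0.0526 to 0.0903), and the call between rescued and WT without rescued replicate 2 or WT replicate 1 or 3 (adjusted p = 0.0569 to 0.0712). Tead1 (probe set 17481936), the other TEAD gene, had log2 levels of 10.05, 10.05 and 10.10 in rescued, 9.97, 10.13 and 9.99 in mutant and 10.15, 10.08 and 10.15 in WT pools. These ranges overlapped between mutant and WT, and the difference of mutant from WT was −0.10 (95% interval −0.24 to 0.04, adjusted p = 0.287).

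Ankrd1 (probe set 17364176), which encodes a nuclear ankyrin repeat protein best known from stressed muscle, had log2 levels of 7.59, 7.58 and 7.34 in rescued, 9.29, 9.0 and 9.26 in mutant and 6.86, 7.13 and 7.25 in WT pools. The lowest mutant pool lay 1.42 above the highest of the other pools. Ankrd1 was 4.29-fold higher in mutant corneas than in WT (log2 difference 2.10, SE 0.12, limma adjusted p = 1.99e-06), which exceeded the absolute difference of 99% of all genes. In rescued corneas it was 3.21-fold lower than in mutant corneas (−1.68, SE 0.12, adjusted p = 3.99e-05). It stayed 1.34-fold above WT (0.42, SE 0.12, adjusted p = 0.0452), a call that was lost without mutant replicate 1 or 3, rescued replicate 1 or 2, or WT replicate 1 or 2 (adjusted p = 0.0561 to 0.14). The skeletal and cardiac muscle markers given above were low in all 3 groups. None of the 10 was called higher in mutant corneas than in WT by limma (0 at an unadjusted p under 0.05). In the same comparison 1 was called lower, and 2 without WT replicate 2. Whether muscle cells had a part in the difference of Ankrd1 was not tested.

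Ccn1 (probe set 17410974), which encodes the matricellular protein CYR61, had log2 levels of 11.29, 11.65 and 10.78 in rescued, 12.47, 12.45 and 12.33 in mutant and 10.80, 10.98 and 10.85 in WT pools. All mutant pools were above all others, and the rescued pools, which spread widely, overlapped the WT pools. Ccn1 was 2.90-fold higher in mutant corneas than in WT (log2 difference 1.54, SE 0.18, limma adjusted p = 0.00013) and 2.25-fold lower in rescued corneas than in mutant ones (−1.17, SE 0.18, adjusted p = 0.00229). The difference of rescued from WT corneas was 0.37 (95% interval −0.03 to 0.76, adjusted p = 0.225). Without rescued replicate 3, the pool with the lowest Srf level, that difference was 0.60 and passed the test (adjusted p = 0.00965).

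Ccn2 (probe set 17232235), which encodes connective tissue growth factor, had log2 levels of 10.64, 11.06 and 10.55 in rescued, 11.22, 11.44 and 11.16 in mutant and 9.36, 9.62 and 10.49 in WT pools. The groups did not overlap, though WT replicate 3 lay just below the rescued pools. Ccn2 was 2.73-fold higher in mutant corneas than in WT (log2 difference 1.45, SE 0.25, limma adjusted p = 0.00172). In contrast to Ankrd1 and Ccn1, its difference of rescued from mutant corneas did not pass the test (−0.52, 95% interval −1.09 to 0.05, adjusted p = 0.229), although it did without WT replicate 3 (adjusted p = 0.0489). Whether Ccn2 differed from the other targets in its change was not tested. Rescued corneas were 1.90-fold above WT (0.93, SE 0.25, adjusted p = 0.0397). That call was lost without any mutant replicate, rescued replicate 1 or 2, or WT replicate 1 or 2 (adjusted p = 0.0511 to 0.14), and without WT replicate 3 the difference was 1.26 (adjusted p = 0.00271). A second, dimmer probe set of Ccn2 had mean log2 levels of 6.51 in rescued, 6.81 in mutant and 6.46 in WT corneas. With the mean of both probe sets, the difference of rescued from WT was 0.49 (adjusted p = 0.0627).

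Amotl2 (probe set 17520856) encodes an angiomotin-like scaffold that holds YAP and TAZ outside the nucleus and is itself a YAP/TAZ target. It had log2 levels of 9.06, 8.88 and 9.14 in rescued, 8.52, 8.63 and 8.55 in mutant and 9.28, 9.12 and 9.30 in WT pools. The mutant pools were the lowest, without overlap, which is opposite in direction to Ankrd1, Ccn1 and Ccn2. Amotl2 was lower in mutant corneas than in WT by a log2 difference of −0.67 (SE 0.08, limma adjusted p = 0.000212) and higher in rescued corneas than in mutant ones by 0.46 (SE 0.08, adjusted p = 0.00597). The difference of rescued from WT was −0.20 (95% interval −0.39 to −0.02, adjusted p = 0.149).

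Lats2 (probe set 17307184), the gene for a kinase that phosphorylates YAP and TAZ, had log2 levels of 8.71, 8.73 and 8.75 in rescued, 8.62, 8.68 and 8.65 in mutant and 8.76, 8.83 and 8.68 in WT pools. The whole range over the 9 pools was 0.21, with the mutant pools just below the WT pools, and the difference of mutant from WT was −0.11 (95% interval −0.24 to 0.03, limma adjusted p = 0.223). Axl (probe set 17488032), the gene for a receptor tyrosine kinase, had log2 levels of 9.90, 9.80 and 9.97 in rescued, 9.86, 9.62 and 9.75 in mutant and 10.05, 10.09 and 9.85 in WT pools. Mutant and WT pools overlapped in 1 pool of each. The difference of mutant from WT was −0.25 (95% interval −0.45 to −0.05, adjusted p = 0.0602) and passed the test without mutant replicate 1 (−0.31, adjusted p = 0.044) or WT replicate 3 (−0.32, adjusted p = 0.0264). Axl is also expressed by macrophages, fibroblasts and vessel walls.

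Rescued and mutant corneas were compared to see what differs when the mutant epithelium has lost Srf. Of the 10 genes, 5 were called, against 13.3% of all genes: Ankrd1, Ccn1 and Tead4 were lower (6.88% of all genes were lower), and Yap1 and Amotl2 were higher (6.46% of all genes were higher). The groups did not overlap in 8 of the 10 genes, against 32.2% of all genes. The median log2 difference was −0.07, beside 0.00 for all genes. Between rescued and WT corneas 4 genes were called, against 13.7% of all genes. Ankrd1, Ccn2, Wwtr1 and Tead4 were all higher (6.28% of all genes were higher). The groups did not overlap in these 4 of the 10 genes, a share near the 31.6% of all genes. None of the 10 was called lower in that comparison by limma (7.43% of all genes were), with 1 lower at an unadjusted p under 0.05 (Amotl2). The median log2 difference was 0.12, beside −0.01 for all genes. The 3 comparisons share arrays, so their values are given side by side and are not independent.

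**Figure D2:**
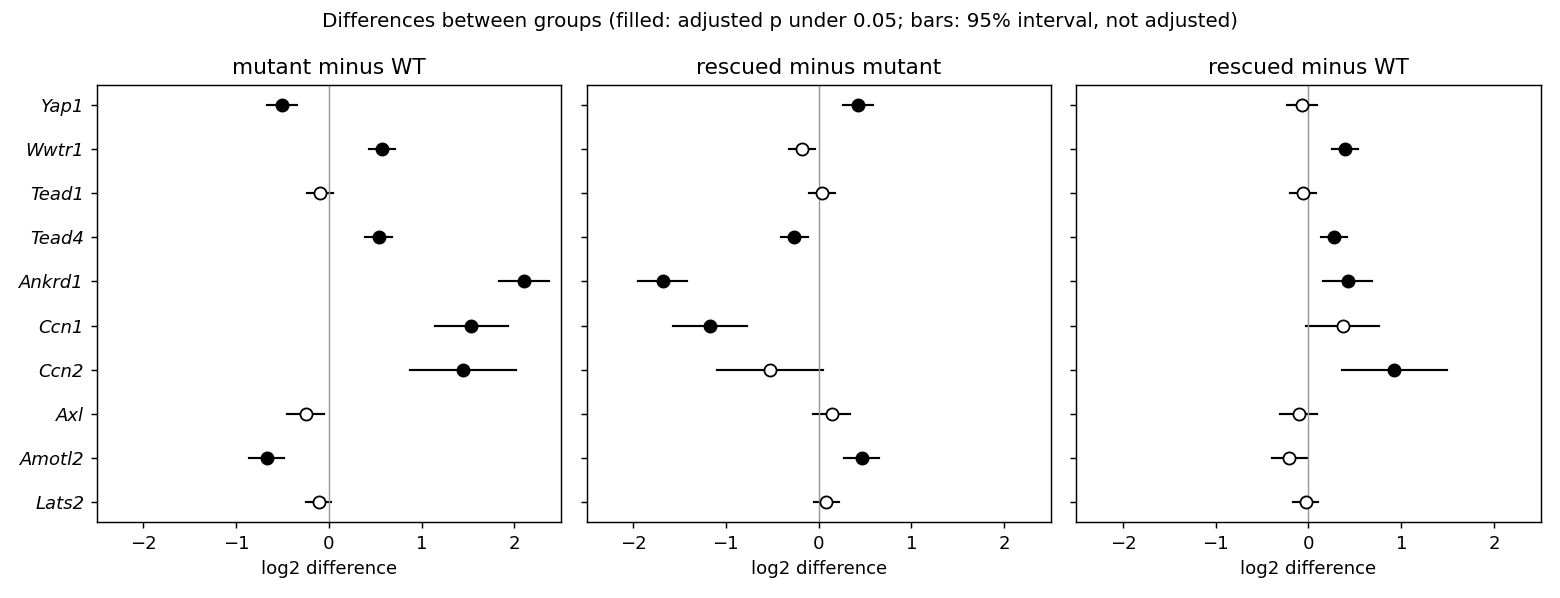
Log2 difference (horizontal axis) of the 10 genes in the 3 comparisons; bars are 95% intervals not adjusted for multiple testing, and filled points have an adjusted p under 0.05. Ankrd1 has the largest difference between mutant and WT (2.10) and between rescued and mutant (−1.68), and Wwtr1, Tead4, Ankrd1 and Ccn2 are filled between rescued and WT.

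The 3 rescued pools differed in Srf, with replicate 2 the highest (9.45) and replicate 3 the lowest (8.45). Ccn1, Ccn2 and Tead4 had the same order in these pools. Their log2 levels were 11.65, 11.06 and 8.0 in replicate 2, 11.29, 10.64 and 7.87 in replicate 1, and 10.78, 10.55 and 7.85 in replicate 3. For Ccn2 and Tead4, replicates 1 and 3 thus lay close together. Amotl2 and Axl had the opposite order, at 8.88 and 9.80 in replicate 2, 9.06 and 9.90 in replicate 1, and 9.14 and 9.97 in replicate 3. The summed linear intensity of the contractile and actin targets of SRF was 54080, 62290 and 42780 in rescued replicates 1, 2 and 3. The other 5 genes, Ankrd1, Wwtr1, Yap1, Lats2 and Tead1, followed neither order. The macrophage and leukocyte sum had the same order as Srf (4819, 5439 and 4463 in replicates 1, 2 and 3). The blood endothelial (2127, 2705 and 2374) and pericyte and smooth muscle sums (3324, 4069 and 3584) were also highest in replicate 2. The keratocyte and fibroblast sum was highest in replicate 1 (42700, 40120 and 39420). The order of 3 pools was not tested, and the share of all genes with either order was not counted.

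Of 27 measured genes that encode other Hippo kinases, scaffolds, cadherins and TEAD partners, 3 were higher and 4 were lower in mutant corneas than in WT, with a median log2 difference of 0.07. In total 7 of the 27 were called, a share near the 31.6% of all genes. Fat4, the gene for an atypical cadherin upstream of Hippo signalling, had mean log2 levels of 7.34 ± 0.22 in rescued, 7.24 ± 0.33 in mutant and 9.38 ± 0.31 in WT corneas (SD, n = 3 each). It was 4.41-fold lower in mutant corneas than in WT (limma adjusted p = 2.76e-05) and 4.11-fold lower in rescued corneas than in WT (adjusted p = 0.000222). Fat4 therefore stayed low in the rescued pools, where its difference from mutant was 0.10 (95% interval −0.33 to 0.54, adjusted p = 0.798). Sav1, the gene for the scaffold of the Hippo kinases, was 1.63-fold higher in mutant corneas than in WT (adjusted p = 0.000264). Map4k4, the gene for a kinase that can activate LATS kinases, was 1.49-fold higher (adjusted p = 6.49e-05). Ptpn14, the gene for a phosphatase that retains YAP in the cytoplasm and also counted among the targets, was 1.53-fold lower (adjusted p = 0.00108). Vgll1, the gene for a TEAD cofactor, was at least 1.25-fold lower (adjusted p = 0.00702), and lay below the median of all rows. Tead3 did not pass the test (log2 difference −0.30, adjusted p = 0.0598), but did without mutant replicate 2 (adjusted p = 0.0409) or rescued replicate 2 (adjusted p = 0.0464). Of the 27 genes, 1 was higher and 4 were lower in rescued corneas than in mutant ones (median log2 difference 0.01), against 6.46% and 6.88% of all genes. No gene was higher in that comparison without mutant replicate 1 or 3, any rescued replicate or WT replicate 1, 2 were higher without mutant replicate 2, and 2 were lower without mutant replicate 1 or 3 or rescued replicate 1 or 3. In rescued compared with WT corneas 2 were higher and 2 were lower (median 0.02), near the 6.28% and 7.43% of all genes, with 1 higher without rescued replicate 1 or 2 and 1 lower without any 1 of the rescued or WT replicates.

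Of 22 measured genes listed as further YAP/TAZ targets, mostly from human cancer cells, 9 were higher and 7 were lower in mutant corneas than in WT, with a median log2 difference of −0.02. Both directions were thus called, against 15.1% of all genes higher and 16.5% lower. Nt5e, the gene for the surface enzyme CD73, had mean log2 levels of 12.17 ± 0.45 in rescued, 13.10 ± 0.04 in mutant and 8.40 ± 0.12 in WT corneas (SD, n = 3 each). It was 26.1-fold higher in mutant corneas than in WT (limma adjusted p = 3.66e-07) and still 13.7-fold higher in rescued corneas than in WT (adjusted p = 6.01e-06). Igfbp3, the gene for a binding protein of insulin-like growth factors, was 12.4-fold higher in mutant corneas than in WT (adjusted p = 1.1e-06). Inhba, the gene for the activin A subunit, was at least 7.67-fold higher (adjusted p = 2.04e-05), its WT level lying below the median of all rows. Edn1, the gene for the vasoconstrictor endothelin-1, was 3.66-fold higher (adjusted p = 3.4e-05), and Cdc42ep3, the gene for a Cdc42 effector, 3.12-fold higher (adjusted p = 8.39e-06). Fjx1, the gene for a relative of the Drosophila kinase four-jointed, was 1.96-fold lower (adjusted p = 0.000297). Nt5e, Igfbp3, Inhba, Edn1 and Cdc42ep3 were each lower in rescued corneas than in mutant ones (1.91-fold, 2.52-fold, 3.04-fold, 2.68-fold and 1.85-fold, adjusted p = 0.000782 to 0.0091). Of the 22 genes, 5 were higher and 8 were lower in rescued corneas than in mutant ones (median log2 difference −0.05), against 6.46% and 6.88% of all genes. The 5 higher genes became 1 without mutant replicate 1 or rescued replicate 1 or 3, and 3 without mutant replicate 2 or 3, rescued replicate 2 or WT replicate 1. In rescued compared with WT corneas 4 were higher and 4 were lower (median −0.03), against 6.28% and 7.43% of all genes, with 2 lower without rescued replicate 1 or 2 or WT replicate 2.

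The listed contractile and actin targets of SRF moved in 1 direction, whereas the listed YAP/TAZ targets moved in both. The lists were chosen with earlier results of these data known, so the counts describe the lists and are not a test of the pathways. Of 30 SRF targets, 29 were higher and none was lower in mutant corneas than in WT, with a median log2 difference of 1.90, against 15.1% of all genes higher and 16.5% lower (limma; 30 were higher and 0 lower at an unadjusted p under 0.05). Of the same 30, none was higher and 28 were lower in rescued corneas than in mutant ones, against 6.46% and 6.88% of all genes (median −0.99; limma, 0 higher at an unadjusted p under 0.05). Between rescued and WT corneas 21 were higher and none was lower, against 6.28% and 7.43% of all genes (median 0.78; limma, 0 lower at an unadjusted p under 0.05). Their summed linear intensity was 42780 to 62290 in rescued, 97910 to 102300 in mutant and 29730 to 30140 in WT pools. The same sum over the 10 genes described here was 9396 to 11280, 13250 to 14230 and 8468 to 9081 in rescued, mutant and WT pools. With each array left out in turn, 28 to 29 SRF targets were higher between mutant and WT. In the same way 22 to 27 were lower between rescued and mutant, and 15 to 23 were higher between rescued and WT. The difference between the lists was not tested. The pericyte and smooth muscle markers given above also had their highest sums in mutant pools (4566 to 6132, beside 3324 to 4069 in rescued and 2685 to 2995 in WT pools). Of these 8 markers, 4 were higher and 1 was lower in mutant corneas than in WT. Their part in the differences of the SRF targets was not tested.

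**Figure D3:**
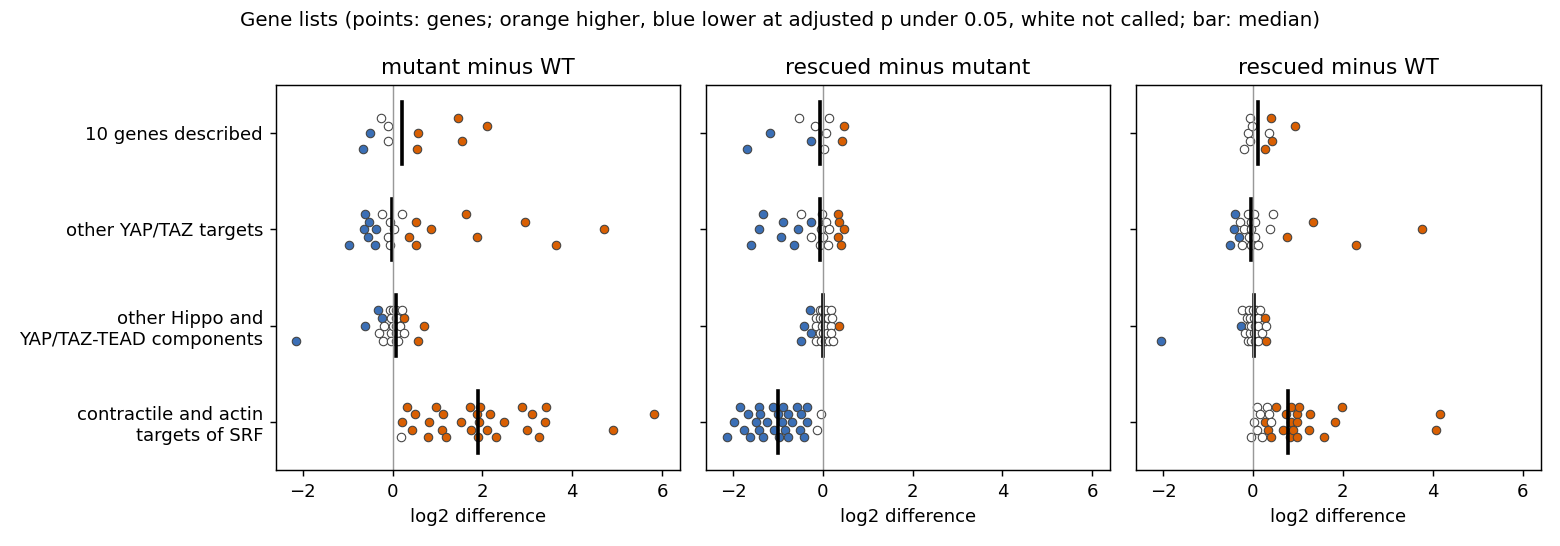
Log2 difference (horizontal axis, same range in each panel) of each gene of 4 lists in the 3 comparisons; orange is higher and blue lower at an adjusted p under 0.05, white is not called, and the black bar is the median of the list. The SRF targets lie at or above 0 between mutant and WT (0.20 to 5.82), while the other YAP/TAZ targets run from −0.97 to 4.70. The lists were chosen with earlier results of these data known, and the difference between them was not tested.

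As a description, the genes most like Ankrd1, Ccn1 and Ccn2 over the 9 arrays were looked up among 12054 genes above the median of all rows. All such points share the 3 groups, so a high Pearson r is common. For Ankrd1 they were Rlim (r = 0.993), Krt84 (r = 0.992) and Acot7 (r = 0.992). For Ccn1 they were Edn1 (r = 0.993), Myh9 (r = 0.991) and Errfi1 (r = 0.990), of which Edn1 stands in the list of YAP/TAZ targets and Myh9 in the list of SRF targets. For Ccn2 they were Fam131c (r = 0.979), Tnfrsf12a (r = 0.974) and Phb2 (r = 0.971). Edn1 had mean log2 levels of 9.71 in rescued, 11.14 in mutant and 9.27 in WT corneas, beside 11.24, 12.42 and 10.88 for Ccn1.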

How the data were processed

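Per the labels' protocols, total RNA of pooled corneas was isolated with Trizol, cRNA was made with an Ambion WT Expression kit, and cDNA was labelled with biotin (Affymetrix WT Terminal Labeling kit) for 1-colour arrays. The deposited log2 values had been normalised between arrays by the authors, by a procedure the sources used here do not state, and array medians lay between 6.75 and 6.78. The number of arrays limits the precision. The p-values weigh a difference against the spread between pools, which limma estimates over the 3 groups together and moderates over all genes. The spread between single mice was not measured. Of 41345 rows, 23521 had exactly 1 gene symbol in the platform annotation, 1814 had several and 16010 are not listed there. For a gene with several rows the brightest was taken, giving 22180 genes, and no filter on intensity was set. The 3 comparisons were fitted over all 9 arrays with limma 3.58.1 (R 4.3.3; lmFit, contrasts, eBayes), two-sided, and p-values were Benjamini-Hochberg adjusted over all genes. A fold whose lower group mean is below 6.77, the median of all rows, is given as at least. Summed intensities are antilogs of the log2 values added over a list. Listed genes not analysed here include Stk3, Taok1, Rassf1, Areg, Krt5, Tkt and Ddx3y. On simulated data of the same size for mutant minus WT, with 50 genes changed at each size, 76%, 96%, 100% and 100% of changes of 0.5, 1, 2 and 3 on the log2 scale were recovered, with 10 false calls among 22180 genes. Far fewer genes were changed there than the 31.6% called in the data, so these rates may not hold for the data. The members and lists were chosen with earlier results of these data known. Named beside the 10 members and the altered genes were up to 6 genes of each pathway list with the largest difference between mutant and WT, and the 3 genes most correlated with each of Ankrd1, Ccn1 and Ccn2. Promoter sequences are from RefSeq (GRCm38.p6); the array annotation names no build. Plots were made in Python 3.11.15 with matplotlib 3.10.9.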

Additional observations from a re-analysis of the deposited data

How the results depend on the processing

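The 30 differences of the 10 genes were recomputed under 12 settings (quantile normalisation, median centring, 2 filters on dim genes, averaged rows per gene, limma's trend and robust options, array weights, fits of only the 6 arrays compared, a replicate block, a Y-linked covariate, a stricter adjusted p of 0.01 and a 2-fold minimum) and without each array in turn. Of the 360 values under these settings 329 kept their side of the threshold, 25 lost and 6 gained the call; without an array these were 244, 21 and 5 of 270. No called difference changed sign, and quantile normalisation and centring changed no call of the 10 genes. All 21 alternatives kept the calls of Ankrd1, Ccn1 and Ccn2 between mutant and WT and of Ankrd1 and Ccn1 between rescued and mutant. The 4 genes called higher in rescued than in WT became 2 with the 6 arrays alone, 2 with the replicate block, 1 at an adjusted p under 0.01, 1 with the Y-linked covariate and 0 with a 2-fold minimum (limma; 4 higher at an unadjusted p under 0.05 without that minimum), and 1 to 5 without an array. With a 2-fold minimum, the 5 higher and 2 lower genes between mutant and WT became 3 and 0, and the 2 higher genes between rescued and mutant became 0, as their differences are under 2-fold. Axl passed the test between mutant and WT with genes below the median (adjusted p = 0.0312) or the 25th percentile (0.0437) of all rows left out, trend and robust options (0.027) and array weights (0.0401). The replicate numbers did not pair the arrays: correlations of deviations from the group means were −0.016 to 0.063 between arrays of the same number and −0.095 to 0.08 otherwise. The replicate block took the calls of Ankrd1 (adjusted p = 0.0883) and Ccn2 (0.0587) between rescued and WT; the cause was not tested. Counts of called genes over the other lists moved by more than 1.5 times in 187 of 1260 recomputations. Excluding the 2-fold minimum, the other components had 2 to 5 higher (main 3) and 3 to 6 lower (main 4) genes between mutant and WT and 0 to 2 higher (main 1) and 1 to 5 lower (main 4) between rescued and mutant, and the other targets 1 to 5 higher (main 5) between rescued and mutant; with that minimum the targets had 5 higher and 0 lower between mutant and WT, and 14 SRF targets were lower between rescued and mutant and 8 higher between rescued and WT.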
